A study of Mus musculus with 16 samples.

Results

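The NF-kB system was followed through 10 of its genes across 16 mouse melanoma tumours: the transcription factor subunits Nfkb1, Nfkb2, Rel and Relb, the inhibitors Nfkbia, Nfkbie and Tnfaip3, and the target genes Cd40, Icam1 and Vcam1. They were taken by symbol from a table of 16094 genes, in which all 10 had an entry, and all 10 passed the filter on low values that left 14672 genes for testing. The tumours grew in mice from B16R2L, a mouse melanoma line, whose cells carried a short hairpin RNA (shMdk) that lowers Mdk, which encodes midkine, a secreted growth factor, or a non-targeting hairpin (shCtrl). At 100 mm3 the mice were given anti-PD1 (clone RMP1-14, 10 mg/kg), an antibody against an inhibitory receptor of T cells, or IgG2a, the control antibody, 2 times a week for 2 weeks. The groups were shMdk anti-PD1, shMdk IgG2a, shCtrl anti-PD1 and shCtrl IgG2a, with 4 separate tumours each. All 16 tumours thus carried a hairpin and had received an antibody. Each line carried 1 hairpin, so an effect of lowering Mdk and a difference between the 2 lines cannot be told apart. Strain, age and sex of the mice are not given in the sources used here.

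NF-kB is a family of dimeric transcription factors. In resting cells inhibitor proteins such as IkB-alpha, the product of Nfkbia, hold the dimers in the cytoplasm, and signals from cytokine and pattern-recognition receptors lead to destruction of the inhibitor and entry of the dimers into the nucleus. Nfkbia, Nfkbie and Tnfaip3 are themselves switched on by NF-kB and feed back on the pathway, and Icam1, Vcam1 and Cd40 are well-studied targets in endothelium, macrophages, dendritic cells and B cells. Activation happens mainly through protein breakdown and movement, so the RNA of a subunit is not a reading of its activity.

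Promoter sequences are shown for Icam1 and Nfkbia, members whose RNA differed between the lines, and for Tnfaip3, a feedback inhibitor whose RNA did not pass a test. Each is the 250 bases before the annotated start, from RefSeq on GRCm38.p6, on the strand of the gene, with matches to kB motifs in capitals.
Icam1, chr9:21015690-21015939, plus strand: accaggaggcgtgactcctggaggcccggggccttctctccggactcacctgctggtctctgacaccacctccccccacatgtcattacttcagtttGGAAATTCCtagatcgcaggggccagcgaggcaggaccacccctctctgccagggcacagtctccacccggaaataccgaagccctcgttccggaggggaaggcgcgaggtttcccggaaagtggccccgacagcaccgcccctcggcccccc
Nfkbia, chr12:55492648-55492897, minus strand: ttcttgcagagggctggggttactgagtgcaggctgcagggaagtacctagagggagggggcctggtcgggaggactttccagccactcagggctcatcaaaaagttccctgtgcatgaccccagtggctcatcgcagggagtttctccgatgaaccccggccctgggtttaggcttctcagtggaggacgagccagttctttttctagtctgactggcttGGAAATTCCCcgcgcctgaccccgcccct
Tnfaip3, chr10:19015411-19015660, minus strand: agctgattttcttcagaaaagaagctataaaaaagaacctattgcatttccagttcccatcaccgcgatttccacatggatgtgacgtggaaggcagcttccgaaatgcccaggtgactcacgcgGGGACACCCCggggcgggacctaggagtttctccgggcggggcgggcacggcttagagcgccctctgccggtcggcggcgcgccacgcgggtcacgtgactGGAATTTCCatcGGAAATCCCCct
Windows of 300 bases (250 before the start and 50 after it) could be read for 6 of the 10 members, in 9 windows. The search, on both strands, used the 10-base kB consensus, which is called here by its name, and the 9-base motif GGAANTTCC, which was added after the windows had been seen. The motifs overlap in the Nfkbia promoter, where GGAAATTCCC at positions -29 to -20 holds both. In Icam1 the capitals are the 9-base GGAAATTCC at -153 to -145, and the consensus had no match there. In Tnfaip3 they are GGGACACCCC at -125 to -116, GGAATTTCC at -24 to -16 and GGAAATCCCC at -12 to -3. At least 1 of the motifs was found in 8 of the 9 windows, covering 6 of 6 members (Nfkb2, Rel, Nfkbia, Nfkbie, Tnfaip3 and Icam1), against 8.93% of all 32817 promoter windows in the table. The consensus alone was found in 7 of the 9 windows and 5 of the 6 members, against 8.46% of all windows, and GGAANTTCC was present in 0.926% of all windows. The count of 6 of 6 thus rests on a motif chosen after the windows had been seen. The windows are not all separate. Windows 2 and 3 of Nfkb2 overlap, and the GGGACTTTCC at 11 to 20 in window 2 is the same site as that at -225 to -216 in window 3. Promoters of Nfkb1, Relb, Cd40 and Vcam1 were not analysed here. A match describes the letters and not the binding of a factor.

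The libraries held 5686405 to 8886334 reads per tumour, recovered from the deposited values, and values below are reads after division by the size factor of the library (normalised reads). Reads come from 3′ ends, so they do not grow with gene length. Mdk ranged over 96.5 to 312 normalised reads in shMdk anti-PD1 tumours, against 606 to 1104 in shCtrl anti-PD1 tumours, and over 121 to 323 in shMdk IgG2a tumours, against 601 to 1161 in shCtrl IgG2a tumours. All 7 melanocytic markers were present, and none of the 7 had an adjusted p under 0.05 between the lines under either antibody. Their sum was 126434 to 146591 normalised reads in shMdk IgG2a tumours, below the 151635 to 187437 of shCtrl IgG2a tumours. Under anti-PD1 the sums overlapped, at 107394 to 143030 in shMdk tumours and 134737 to 182973 in shCtrl tumours. The summed level of 11 macrophage markers was 3129 to 7181 normalised reads in shMdk anti-PD1 tumours, 1473 to 4050 in shMdk IgG2a tumours, 384 to 1503 in shCtrl anti-PD1 tumours and 404 to 981 in shCtrl IgG2a tumours, and none of the 11 was at 0 throughout a group. In 5 libraries genes rich in G and C at the 3′ end were read more often, with a slope of 0.08 to 0.18 on the log2 scale per 10% GC against -0.11 to -0.01 in the other 11. These were shMdk anti-PD1 tumour 1, shMdk IgG2a tumours 3 and 4, and shCtrl IgG2a tumours 1 and 2. Gm42418, which lies over a ribosomal RNA repeat, took 3.17% of the reads of shMdk IgG2a tumour 1 and 4.47% of those of shCtrl anti-PD1 tumour 2. Calls of the 10 genes that change without these libraries are given below with that value.

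**Figure D1:**
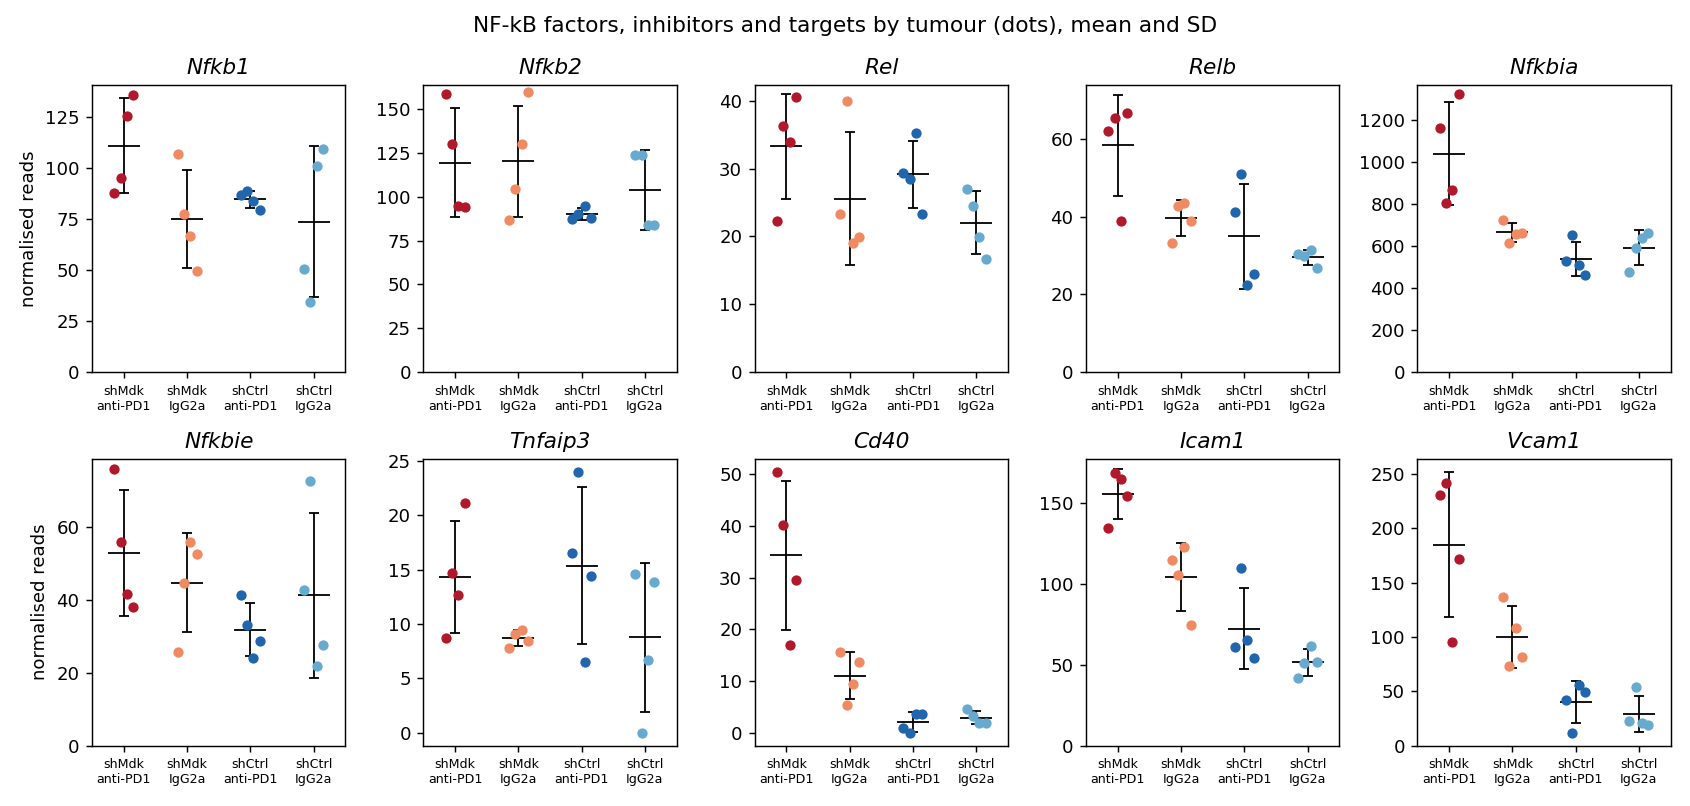
Normalised reads of the 10 genes (vertical axes, each starting at or just below 0) in each of the 16 tumours (dots), with group mean and SD. From left to right stand shMdk anti-PD1, shMdk IgG2a, shCtrl anti-PD1 and shCtrl IgG2a. Cd40, Icam1, Vcam1 and Nfkbia are highest in the shMdk anti-PD1 group, while the groups of Nfkb1, Nfkb2, Rel, Nfkbie and Tnfaip3 overlap.

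The first comparison asked how tumours with Mdk knocked down differ from control tumours when both have received anti-PD1. Of the 10 genes, 4 were higher in shMdk tumours (Cd40, Vcam1, Icam1 and Nfkbia) and 0 were lower, at an adjusted p under 0.05 in limma, with p-values adjusted over all genes tested. Of all genes tested, 4.93% were higher and 0.995% lower by that rule. The same 4 members had no overlap between the groups, a pattern that 8.23% of all genes showed in this direction. The median log2 fold change over the 10 was 0.73, against -0.02 over all genes. None of the 4 subunit genes passed, and the genes that passed were 1 inhibitor and the 3 targets. In the GENCODE M21 annotation of GRCm38 the 4 genes lie at separate loci, Cd40 at chr2:165055627-165072948, Vcam1 at chr3:116109949-116129688, Icam1 at chr9:21015985-21028817 and Nfkbia at chr12:55489410-55492647. These are whole tumours, in which more cells of a type and more RNA per cell cannot be told apart.

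Cd40 encodes a receptor of the TNF receptor family on macrophages, dendritic cells and B cells, through which T cells switch on the non-canonical NF-kB pathway. It had 50.5, 40.1, 16.9 and 29.6 normalised reads in the shMdk anti-PD1 tumours, against 0.920, 0, 3.72 and 3.59 in the shCtrl anti-PD1 tumours. Every shMdk anti-PD1 tumour lay above every shCtrl tumour of either antibody. The means were 34.3 ± 14.4 in shMdk anti-PD1 tumours and 2.06 ± 1.88 in shCtrl anti-PD1 tumours (SD, n = 4 each), a 16.7-fold ratio, with a log2 fold change of 3.69 ± 0.54 (SE; limma adjusted p = 9.12e-04). These levels rest on 148 recovered reads over the 4 shMdk anti-PD1 tumours and 9 over the 4 shCtrl anti-PD1 tumours, so the size of the ratio is loosely set. The filter on low values asked for a mean of at least 5 normalised reads over all tumours, and Cd40 had 12.6. It passed through the shMdk groups, as its means in shCtrl tumours, 2.06 under anti-PD1 and 2.86 under IgG2a, were below 5. With 5 instead of 1 added before the logarithm the log2 fold change was 2.44, still past the threshold.

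Vcam1, an adhesion molecule of activated endothelium that macrophages and stromal cells also make, binds leukocytes through the integrin alpha4 beta1. Its values were 230.2, 242, 95.8 and 172 normalised reads in shMdk anti-PD1 tumours, against 42.3, 12.0, 55.8 and 49.4 in shCtrl anti-PD1 tumours. The lowest shMdk anti-PD1 tumour was above the highest shCtrl anti-PD1 tumour. The log2 fold change was 2.30 ± 0.44 (limma adjusted p = 0.00434), from a mean of 185 ± 66.9 in shMdk anti-PD1 tumours and 39.9 ± 19.4 in shCtrl anti-PD1 tumours.

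Icam1, the ligand of the leukocyte integrins LFA-1 and Mac-1, differed less. It had 134, 168, 164 and 154 normalised reads in shMdk anti-PD1 tumours, against 60.7, 109.6, 65.1 and 53.9 in shCtrl anti-PD1 tumours. The values within the shMdk anti-PD1 group lay close together, and the highest shCtrl value was in the library with the most Gm42418 reads and the fewest reads in all. The log2 fold change was 1.14 ± 0.23 (limma adjusted p = 0.00559).

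Nfkbia, the inhibitor with the highest level of the 10 genes, had 1161, 807, 869 and 1325 normalised reads in shMdk anti-PD1 tumours, against 529, 655, 511 and 460.1 in shCtrl anti-PD1 tumours. The groups did not overlap, and the log2 fold change was 0.93 ± 0.16 (limma adjusted p = 0.00249). For Cd40, Vcam1, Icam1 and Nfkbia alike a two-sided exact permutation test gave p = 0.0286, the smallest that 4 tumours against 4 allow. Any gene whose groups do not overlap gives this value, so it restates the lack of overlap. The limma calls under anti-PD1 held in 21 of 21 alternative fits for Nfkbia, Icam1 and Vcam1 and in 20 of 20 for Cd40. Cd40, with a mean of 12.6, was not tested in the alternative that asked for a mean of at least 20 normalised reads.

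The other inhibitors did not pass. Nfkbie, which encodes IkB-epsilon, averaged 52.8 ± 17.1 normalised reads in shMdk anti-PD1 tumours and 31.8 ± 7.32 in shCtrl anti-PD1 tumours, a log2 difference of 0.69 ± 0.36 (limma adjusted p = 0.340). Tnfaip3, which encodes the ubiquitin-editing enzyme A20, averaged 14.3 ± 5.18 in shMdk anti-PD1 tumours and 15.4 ± 7.21 in shCtrl anti-PD1 tumours. Its log2 difference of -0.03 had a 95% interval of -1.44 to 1.38, wide enough to hold a rise or fall of more than 2-fold. The gene gave 64 recovered reads over the shMdk anti-PD1 tumours and 57 over the shCtrl anti-PD1 tumours.

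Among the subunits, Relb, the partner of p52 in the non-canonical pathway, came nearest to the threshold. It had 62.2, 65.6, 39.0 and 66.9 normalised reads in shMdk anti-PD1 tumours, against 41.4, 51.0, 22.3 and 25.2 in shCtrl anti-PD1 tumours. Tumour 3 of the shMdk anti-PD1 group lay within the range of the shCtrl anti-PD1 group, and the other shMdk anti-PD1 tumours lay above it. The log2 difference was 0.77 ± 0.27 (limma adjusted p = 0.118). It passed without shCtrl anti-PD1 tumour 2, with a log2 fold change of 0.98 and an adjusted p of 0.0386, and also when both libraries high in Gm42418 were left out (adjusted p = 0.0360).

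Nfkb1, the gene of p105 and p50, averaged 111 ± 23.2 normalised reads in shMdk anti-PD1 tumours and 84.4 ± 4.10 in shCtrl anti-PD1 tumours, a log2 difference of 0.37 ± 0.32 (limma adjusted p = 0.626). With the GC slope of the library as a covariate, a fit added after seeing the data, the log2 fold change was 0.59 and the adjusted p 0.0498. Nfkb2, the gene of p100 and p52, averaged 119 ± 31.0 in shMdk anti-PD1 tumours and 90.1 ± 3.37 in shCtrl anti-PD1 tumours, and Rel, the gene of c-Rel, averaged 33.3 ± 7.80 in shMdk anti-PD1 tumours and 29.2 ± 4.90 in shCtrl anti-PD1 tumours. The log2 differences, 0.37 ± 0.23 for Nfkb2 and 0.17 ± 0.29 for Rel, did not pass in any of 21 alternative fits each.

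**Figure D2:**
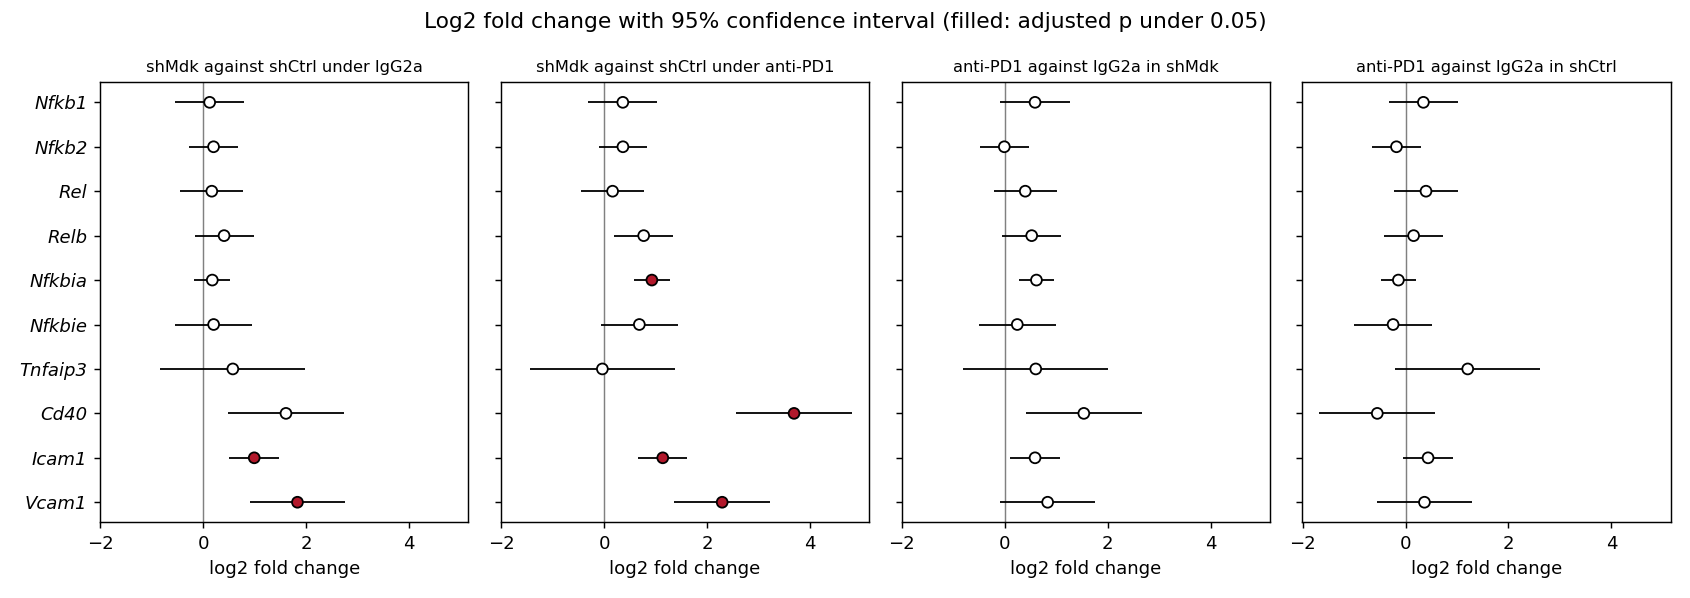
Log2 fold changes of the 10 genes (horizontal axes) with 95% confidence intervals in 4 comparisons, filled where the adjusted p is under 0.05. The filled points are Icam1 and Vcam1 in shMdk against shCtrl under IgG2a, and Nfkbia, Cd40, Icam1 and Vcam1 under anti-PD1. No point is filled in the panels of anti-PD1 against IgG2a.

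Under the control antibody the lines were compared again, with other tumours. Of the 10 genes, 2 were higher in shMdk IgG2a tumours (Icam1 and Vcam1) and 0 were lower, where 1.63% of all genes tested were higher and 0.109% lower by the same rule. The groups did not overlap for 4 members (Relb, Cd40, Icam1 and Vcam1), all higher in shMdk tumours, against 4.16% of all genes in that direction. The median log2 fold change over the 10 was 0.30, against -0.01 over all genes.

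Icam1 had 115, 106, 122 and 74.6 normalised reads in shMdk IgG2a tumours, against 41.6, 51.2, 61.8 and 51.7 in shCtrl IgG2a tumours. Every shMdk value was above every shCtrl value, and the log2 fold change was 0.99 ± 0.23 (limma adjusted p = 0.0311). Vcam1 had 137, 73.7, 108 and 82.0 in shMdk IgG2a tumours, against 22.5, 54.3, 20.9 and 19.4 in shCtrl IgG2a tumours. Here too the groups were apart, with shCtrl tumour 2 well above the rest of its group, and the log2 fold change was 1.83 ± 0.44 (limma adjusted p = 0.0401).

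Both calls under IgG2a lay close to the threshold and depended on single tumours. Icam1 kept its call when shCtrl IgG2a tumour 3 or shMdk IgG2a tumour 4 was left out and lost it without any 1 of the other 6, and Vcam1 kept its call without shCtrl IgG2a tumour 2 or shMdk IgG2a tumour 2 and lost it without any 1 of the other 6. Over the 8 omissions the log2 fold changes stayed within 0.89 to 1.14 for Icam1 and 1.67 to 2.17 for Vcam1, with adjusted p up to 0.125 and 0.142. Without the 5 libraries of positive GC slope, which leaves 2 tumours of each line, the log2 fold changes were 0.95 for Icam1 and 2.26 for Vcam1 (limma adjusted p = 0.183 and 0.120). With the GC slope as a covariate in all 16 tumours they passed, at adjusted p = 0.00688 and 0.0284.

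Cd40 had 15.6, 5.46, 9.48 and 13.7 normalised reads in shMdk IgG2a tumours, against 4.50, 3.20, 1.90 and 1.85 in shCtrl IgG2a tumours. The groups did not overlap, and the log2 difference of 1.61 ± 0.54 did not pass the adjustment (limma adjusted p = 0.204, two-sided exact permutation p = 0.0286). These values come from 43 recovered reads in shMdk IgG2a tumours and 11 in shCtrl IgG2a tumours. Relb had 33.4, 42.7, 43.6 and 38.9 in shMdk IgG2a tumours, against 30.4, 29.8, 31.4 and 26.8 in shCtrl IgG2a tumours. The gap between the lines was small but free of overlap, and the log2 difference was 0.41 ± 0.27 (limma adjusted p = 0.751).

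Nfkbia had 725, 617, 657 and 664 normalised reads in shMdk IgG2a tumours, against 478, 591, 637 and 665 in shCtrl IgG2a tumours. The groups overlapped, and the log2 difference was 0.18 with a 95% interval of -0.17 to 0.52 (limma adjusted p = 0.868). The log2 differences of Nfkb1, Nfkb2, Rel and Nfkbie lay between 0.12 and 0.20, and none passed in any alternative. They moved with the libraries used: over the alternatives Nfkb1 ran from -0.20 to 0.36, Rel from -0.06 to 0.72, Nfkbie from -0.04 to 0.52 and Nfkb2 from 0.05 to 0.34. Without the libraries of positive GC slope Nfkb1 stood at -0.20 and Rel at 0.72. The log2 difference of Tnfaip3 was 0.57. In shCtrl IgG2a tumour 2 the gene had no read, and without that tumour the log2 difference was -0.32 (limma adjusted p = 0.912), and without the libraries of positive GC slope -0.18.

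The effect of anti-PD1 within each line was asked next. In shMdk tumours 0 of the 10 genes passed in limma, where 0.0341% of all genes did, 5 in number. At an unadjusted p under 0.05 there were 3 members (Nfkbia, Cd40 and Icam1), against 12.4% of all genes. These 3 also showed no overlap, all higher under anti-PD1, against 4.42% of all genes in that direction. With edgeR 0 members passed, and with DESeq2 1 did, Nfkbia (log2 fold change 0.64, adjusted p = 0.0245), where DESeq2 called 248 genes in all.

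Nfkbia averaged 1040.3 ± 245 normalised reads in shMdk anti-PD1 tumours and 666 ± 44.9 in shMdk IgG2a tumours, a log2 difference of 0.62 ± 0.16 (limma adjusted p = 0.201, two-sided exact permutation p = 0.0286). Cd40 averaged 34.3 ± 14.4 in shMdk anti-PD1 tumours and 11.05 ± 4.51 in shMdk IgG2a tumours, with a log2 difference of 1.54 ± 0.54 (limma adjusted p = 0.280). Icam1 averaged 155 ± 15.4 in shMdk anti-PD1 tumours and 104 ± 20.9 in shMdk IgG2a tumours, with a log2 difference of 0.59 ± 0.23 (limma adjusted p = 0.322). For all 3 the lowest anti-PD1 tumour was above the highest IgG2a tumour. Vcam1, at 185 ± 66.9 in shMdk anti-PD1 tumours and 100.1 ± 28.5 in shMdk IgG2a tumours, overlapped between the antibodies through tumour 3 of the anti-PD1 group.

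In shCtrl tumours 0 of the 10 genes passed, as did 0 of all genes in limma, and 0 members had an unadjusted p under 0.05, against 3.79% of all genes. With edgeR and with DESeq2 0 members passed as well. No member was free of overlap, against 2.11% of all genes in either direction. Nfkbia averaged 539 ± 82.5 normalised reads in shCtrl anti-PD1 tumours and 593 ± 82.1 in shCtrl IgG2a tumours, a log2 difference of -0.14 with a 95% interval of -0.49 to 0.21. Cd40 gave 9 recovered reads over the 4 anti-PD1 tumours and 11 over the 4 IgG2a tumours, a depth at which a fall or a small rise could not be shown. Icam1 averaged 72.3 ± 25.3 in shCtrl anti-PD1 tumours and 51.6 ± 8.24 in shCtrl IgG2a tumours, with overlap. Vcam1 averaged 39.9 ± 19.4 in shCtrl anti-PD1 tumours and 29.3 ± 16.8 in shCtrl IgG2a tumours, also with overlap. Its log2 difference was 0.37, and 0.85 without the libraries high in Gm42418 (limma adjusted p = 0.796). Without the libraries of positive GC slope 3 log2 differences changed sign, none of which passed: Nfkb1 stood at -0.31 against 0.35 in all tumours, Nfkb2 at 0.10 against -0.18, and Nfkbie at 0.33 against -0.24.

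Whether the lines differed in their response to anti-PD1 was tested as an interaction. In limma 0 of the 10 genes and 0 of all genes passed. At an unadjusted p under 0.05 there were 2 members, Nfkbia (0.75 ± 0.23 on the log2 scale, unadjusted p = 0.00474) and Cd40 (2.09 ± 0.76, unadjusted p = 0.0136), against 3.45% of all genes, and 0 members passed with edgeR or DESeq2. After adjustment neither was near the threshold. This interaction and the comparisons within antibodies and lines use the same 16 tumours and are not independent of each other.

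Ordered by mean, Cd40 was highest in shMdk anti-PD1 tumours, then in shMdk IgG2a tumours, with no overlap between these neighbours, nor between shMdk IgG2a and shCtrl IgG2a tumours; the shCtrl groups overlapped. For Vcam1 the only neighbours free of overlap were shMdk IgG2a and shCtrl anti-PD1 tumours. For Icam1 and Nfkbia they were shMdk anti-PD1 and shMdk IgG2a tumours. All neighbouring groups overlapped for Nfkb1, Nfkb2, Rel, Relb, Nfkbie and Tnfaip3. Tnfaip3 was the only member whose highest mean was in shCtrl anti-PD1 tumours, and Nfkb2 the only member highest in shMdk IgG2a tumours, at 120.3 ± 31.7 against 119 ± 31.0 in shMdk anti-PD1 tumours.

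With the groups pooled, 3 members followed the GC slope of the library. Nfkb2, whose last 300 transcript bases hold 57.0% GC, had 124 to 159.8 normalised reads in the 5 libraries of positive slope and 83.7 to 130.2 in the other 11. Nfkbie, at 48.3% GC, had 42.8 to 75.8 in the 5 and 21.9 to 55.8 in the 11. Nfkb1, at 35.0% GC, went the other way, with 34.1 to 87.4 in the 5 and 77.3 to 135 in the 11.

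The same pattern shows within single groups. In shCtrl IgG2a tumours Nfkb1 had 50.7 and 34.1 normalised reads in tumours 1 and 2, which have a positive slope, and 101 and 109 in tumours 3 and 4. Nfkb2 had 124 and 124 in tumours 1 and 2 and 83.7 and 84.0 in tumours 3 and 4. The 4 shCtrl anti-PD1 libraries, none of positive slope, had SDs of 4.10 for Nfkb1 and 3.37 for Nfkb2, against 36.9 and 23.0 in shCtrl IgG2a tumours. The part of the GC slope in these values was not tested. Cd40 (44.0% GC) and Vcam1 (45.0%) showed no such split, with ranges in the 5 libraries that lay within or near those of the 11. Icam1 and Relb, both richer in GC than Nfkbie, were not higher in the 5. The median of Icam1 (51.7% GC) was 74.6 in the 5 and 105.5 in the 11, and that of Relb (50.3%) 38.9 and 39.0. Nfkbia (39.3%) had medians of 657 and 655. Rel (29.3%) and Tnfaip3 (30.0%) had lower medians in the 5, at 22.3 against 29.4 and 8.74 against 13.8.

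**Figure D3:**
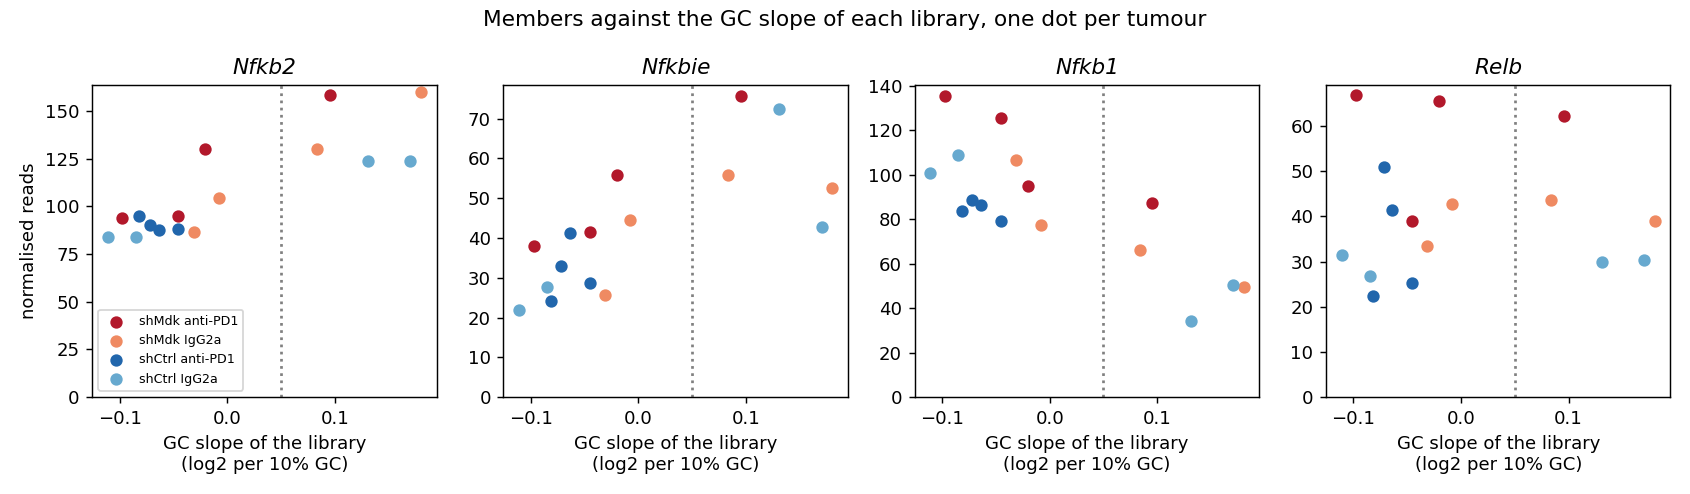
Normalised reads of Nfkb2, Nfkbie, Nfkb1 and Relb (vertical axes) against the GC slope of each library (horizontal axes, log2 per 10% GC), 1 dot per tumour, with groups by colour. Right of the dotted line are the 5 libraries of positive slope, where Nfkb2 has 124 to 159.8 reads and Nfkb1 34.1 to 87.4.

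Markers of macrophages moved with the members that rose. Under anti-PD1 11 of 11 macrophage markers were higher in shMdk tumours in limma, and under IgG2a 6 of 11 were. Of 8 general leukocyte markers 6 were higher under anti-PD1 and 5 under IgG2a. Their sum differed less, at 4732 ± 457 normalised reads in shMdk anti-PD1 tumours and 2668 ± 272 in shCtrl anti-PD1 tumours, and 3715 ± 613 in shMdk IgG2a tumours and 2654 ± 150.5 in shCtrl IgG2a tumours. A large share of that sum is Arhgdib, at 1720 ± 238 in shMdk anti-PD1 tumours and 1592 ± 145 in shCtrl anti-PD1 tumours. Ptprc, the pan-leukocyte gene of CD45, averaged 207 ± 84.0 normalised reads in shMdk anti-PD1 tumours and 35.2 ± 21.0 in shCtrl anti-PD1 tumours, and 127 ± 37.1 in shMdk IgG2a tumours and 19.6 ± 13.8 in shCtrl IgG2a tumours. The B cell list had 6 markers tested, of which 3 were higher under anti-PD1 and 2 under IgG2a, and the T cell list had 7, of which 4 were higher under anti-PD1 and 0 under IgG2a. Endothelial markers were higher for 3 of 11 under anti-PD1 and 0 of 11 under IgG2a. Fibroblast markers were higher for 4 of 8 under anti-PD1 and 0 of 8 under IgG2a, and dendritic markers for 0 of 3 under both. Of 8 listed dendritic markers only 5 had an entry and 3 were tested, so a change in dendritic cells could be missed. No marker of these lists was lower. The part of the cell make-up in the rise of Cd40, Vcam1, Icam1 and Nfkbia was not tested.

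Set against summed markers, the members differed from each other, and the direction depended on the list used as divisor. The median of Vcam1 per 1000 macrophage reads was 34.7 in shMdk anti-PD1 tumours, 38.8 in shMdk IgG2a tumours, 35.9 in shCtrl anti-PD1 tumours and 49.5 in shCtrl IgG2a tumours, with ranges that overlapped between all groups. That of Icam1 was lower in both shMdk groups, with overlap: 33.3 in shMdk anti-PD1 tumours, 38.9 in shMdk IgG2a tumours, 66.4 in shCtrl anti-PD1 tumours and 89.0 in shCtrl IgG2a tumours. That of Nfkbia was 229 in shMdk anti-PD1 tumours, 225 in shMdk IgG2a tumours, 559 in shCtrl anti-PD1 tumours and 1089.5 in shCtrl IgG2a tumours.

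Cd40 per 1000 macrophage reads was 5.42 to 8.30 in shMdk anti-PD1 tumours, 3.70 to 3.85 in shMdk IgG2a tumours, 0 to 2.59 in shCtrl anti-PD1 tumours and 3.26 to 5.17 in shCtrl IgG2a tumours. By this divisor the shMdk anti-PD1 range was above the other 3, and the shMdk IgG2a range lay inside that of shCtrl IgG2a tumours. Per 1000 reads of Ptprc, a divisor chosen after the data were seen, the median of Cd40 was 164 in shMdk anti-PD1 tumours, 84.0 in shMdk IgG2a tumours, 53.3 in shCtrl anti-PD1 tumours and 165 in shCtrl IgG2a tumours. With this divisor the medians of Vcam1 and Icam1 were lower in both shMdk groups, with overlap between the lines under each antibody. Vcam1 stood at 847 in shMdk anti-PD1, 809 in shMdk IgG2a, 1036 in shCtrl anti-PD1 and 2031 in shCtrl IgG2a tumours. Icam1 stood at 866 in shMdk anti-PD1, 840 in shMdk IgG2a, 1945 in shCtrl anti-PD1 and 3723 in shCtrl IgG2a tumours. The Cd40 and Ptprc ratios have few reads in the shCtrl groups, and no ratio was tested.

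With the 8 leukocyte markers as divisor, unlike with Ptprc alone, all 3 targets had higher medians in both shMdk groups. Arhgdib makes up a large share of this divisor, as given above, and the sum differed less between the lines than Ptprc did. Vcam1 per 1000 leukocyte reads was 41.5 in shMdk anti-PD1 tumours, 27.5 in shMdk IgG2a tumours, 16.7 in shCtrl anti-PD1 tumours and 7.89 in shCtrl IgG2a tumours. Icam1 was 33.99 in shMdk anti-PD1 tumours, 30.6 in shMdk IgG2a tumours, 22.2 in shCtrl anti-PD1 tumours and 20.1 in shCtrl IgG2a tumours. Under anti-PD1 the lines overlapped for Icam1 and not for Vcam1, and under IgG2a they overlapped for both genes. Cd40 ranged over 3.99 to 9.74 in shMdk anti-PD1 tumours, 1.91 to 3.81 in shMdk IgG2a tumours, 0 to 1.31 in shCtrl anti-PD1 tumours and 0.691 to 1.61 in shCtrl IgG2a tumours, so both shMdk ranges were above both shCtrl ranges.

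With 11 endothelial markers as divisor the medians of the targets were again higher in both shMdk groups. Vcam1 per 1000 endothelial reads was 66.8 in shMdk anti-PD1 tumours, 57.8 in shMdk IgG2a tumours, 37.0 in shCtrl anti-PD1 tumours and 13.9 in shCtrl IgG2a tumours. Icam1 was 72.1 in shMdk anti-PD1 tumours, 70.7 in shMdk IgG2a tumours, 50.5 in shCtrl anti-PD1 tumours and 28.7 in shCtrl IgG2a tumours. Cd40 was 13.1 in shMdk anti-PD1 tumours, 5.14 in shMdk IgG2a tumours, 1.87 in shCtrl anti-PD1 tumours and 1.61 in shCtrl IgG2a tumours. Among these targets the lines overlapped for Icam1 only under anti-PD1, and for Icam1 and Vcam1 under IgG2a. Nfkbia overlapped between all groups with the leukocyte divisor, with medians of 214 in shMdk anti-PD1 tumours, 178 in shMdk IgG2a tumours, 184 in shCtrl anti-PD1 tumours and 239 in shCtrl IgG2a tumours.

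**Figure D4:**
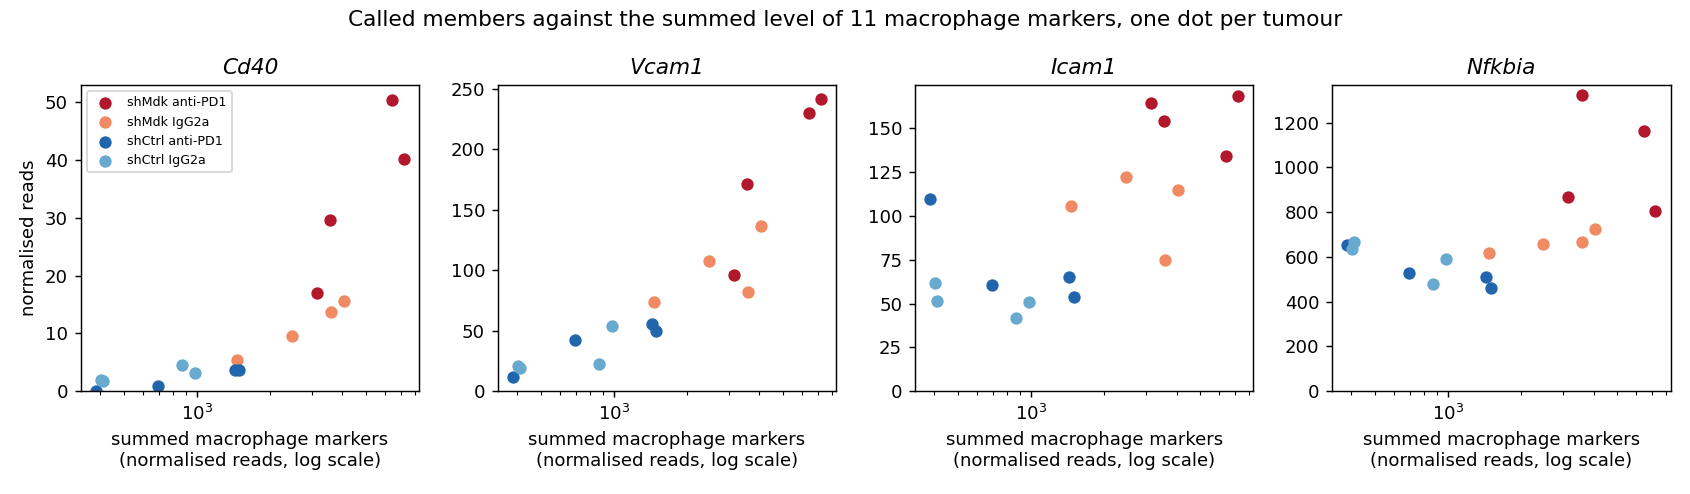
Normalised reads of Cd40, Vcam1, Icam1 and Nfkbia (vertical axes) against the summed normalised reads of 11 macrophage markers (horizontal axes, log scale), 1 dot per tumour, with groups by colour. The shMdk anti-PD1 tumours have marker sums of 3129 to 7181, and both shCtrl groups stay at 1503 or below.

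The rest of the pathway was described from 5 lists holding 103 genes, of which 82 had an entry in the table and 79 were tested. Under anti-PD1 19 were higher and 1 was lower in shMdk tumours, with a median log2 fold change of 0.73. Of all genes tested, 4.93% were higher and 0.995% lower there. Under IgG2a 7 were higher and 0 lower, with a median of 0.26, where 1.63% of all genes were higher and 0.109% lower. The same shares apply to the counts by role below. In the comparisons of anti-PD1 with IgG2a and in the interaction 0 passed in limma. The lists were drawn up with earlier results of these data known, and several hold genes that leukocytes express. Without the 5 libraries of positive GC slope the calls of Tnfrsf1b, Irf1, Tap1, Itgax and Selplg were lost under IgG2a, and those of Myd88, Il1r1, Il1b, Cd86, Itgam, Otud7b and Pecam1 under anti-PD1.

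Among the ligands and receptors 3 of 11 tested genes were higher under anti-PD1 and 1 of 11 under IgG2a. Tnfrsf1b, the gene of TNF receptor 2, passed in both, at 129 ± 21.9 normalised reads in shMdk anti-PD1 tumours and 20.9 ± 5.51 in shCtrl anti-PD1 tumours, a log2 fold change of 2.59 ± 0.29 (limma adjusted p = 1.08e-04). The gene of the IL-1 receptor, Il1r1, and that of the cytokine IL-1 beta, Il1b, rose by 2.96 and 2.33 on the log2 scale under anti-PD1, and Il1b lost its call in 6 of 8 omissions of a tumour and Il1r1 in 2 of 8. Tnf, a main activator of the canonical pathway, averaged 14.2 ± 7.85 in shMdk anti-PD1 tumours and 3.42 ± 3.16 in shCtrl anti-PD1 tumours and did not pass (limma adjusted p = 0.0966).

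Of the kinases and adaptors, 2 of 24 were higher under anti-PD1. Traf1, an adaptor of TNF receptors that is itself a target of NF-kB, averaged 62.1 ± 18.5 normalised reads in shMdk anti-PD1 tumours and 15.6 ± 4.55 in shCtrl anti-PD1 tumours, a log2 fold change of 1.92 ± 0.34 (limma adjusted p = 0.00237). Myd88, the adaptor of Toll-like and IL-1 receptors, rose by 0.94 on the log2 scale under anti-PD1 and lost its call in 4 of 8 omissions. The kinase genes Ikbkb (IKK-beta) and Map3k14 (NIK) did not pass, with log2 differences under anti-PD1 of 0.33 ± 0.24 and 0.61 ± 0.36.

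Of 12 other subunits and inhibitors tested, 0 were higher and 1 was lower under anti-PD1, and 0 passed under IgG2a. The lower gene was Otud7b, which encodes a deubiquitinase that restrains the non-canonical pathway, at 228 ± 18.1 normalised reads in shMdk anti-PD1 tumours and 330.1 ± 52.9 in shCtrl anti-PD1 tumours. Its log2 fold change of -0.52 ± 0.14 lost its call in 5 of 8 omissions, and also under scaling to the total count (limma adjusted p = 0.0307 in the fit as planned). Rela, the gene of the p65 subunit, had the highest mean of the 5 subunit genes, at 597 ± 189 in shMdk anti-PD1 tumours and 467 ± 54.7 in shCtrl anti-PD1 tumours, with overlap (log2 difference 0.31 ± 0.20, limma adjusted p = 0.454). Nfkbib, which encodes IkB-beta, averaged 466 ± 29.7 in shMdk anti-PD1 tumours and 596 ± 112 in shCtrl anti-PD1 tumours (log2 difference -0.33 ± 0.17, limma adjusted p = 0.333).

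Other targets were higher for 6 of 19 genes under anti-PD1 and 2 of 19 under IgG2a. Cd83 and Cd86, surface proteins of antigen-presenting cells, rose by 3.11 and 2.52 on the log2 scale under anti-PD1, and Ccl2, a monocyte chemokine, by 2.37. Irf1, an interferon-induced transcription factor, and Tap1, a peptide transporter for class I presentation, passed under both antibodies. Irf1 averaged 1525 ± 303 normalised reads in shMdk anti-PD1 tumours and 402 ± 203 in shCtrl anti-PD1 tumours, and 1005 ± 422 in shMdk IgG2a tumours and 240 ± 27.0 in shCtrl IgG2a tumours. Irf1 and Tap1 also answer to interferons.

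Partners in adhesion were higher for 8 of 13 genes under anti-PD1 and 3 of 13 under IgG2a. Of the integrin chains that bind the product of Icam1, Itgal (LFA-1) and Itgam (Mac-1) rose under anti-PD1 by 1.99 and 3.19 on the log2 scale, Itgam losing its call in 6 of 8 omissions, and Itgax, an integrin chain of dendritic cells and macrophages, rose by 3.99. Their common chain Itgb2 averaged 174 ± 54.1 normalised reads in shMdk anti-PD1 tumours and 90.0 ± 34.6 in shCtrl anti-PD1 tumours and did not pass (limma adjusted p = 0.0989). Itga4, the integrin chain that binds the product of Vcam1, averaged 363 ± 52.1 in shMdk anti-PD1 tumours and 429 ± 171 in shCtrl anti-PD1 tumours, a log2 difference of -0.16 with a 95% interval that includes 0. Itgb7, a chain that pairs with it, rose by 2.82 under anti-PD1 and by 3.36 under IgG2a, losing its call in 4 and 5 of 8 omissions. Pecam1, an endothelial gene that leukocytes also express, rose by 1.24 under anti-PD1 with overlap between the groups, and lost its call in 5 of 8 omissions.

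**Figure D5:**
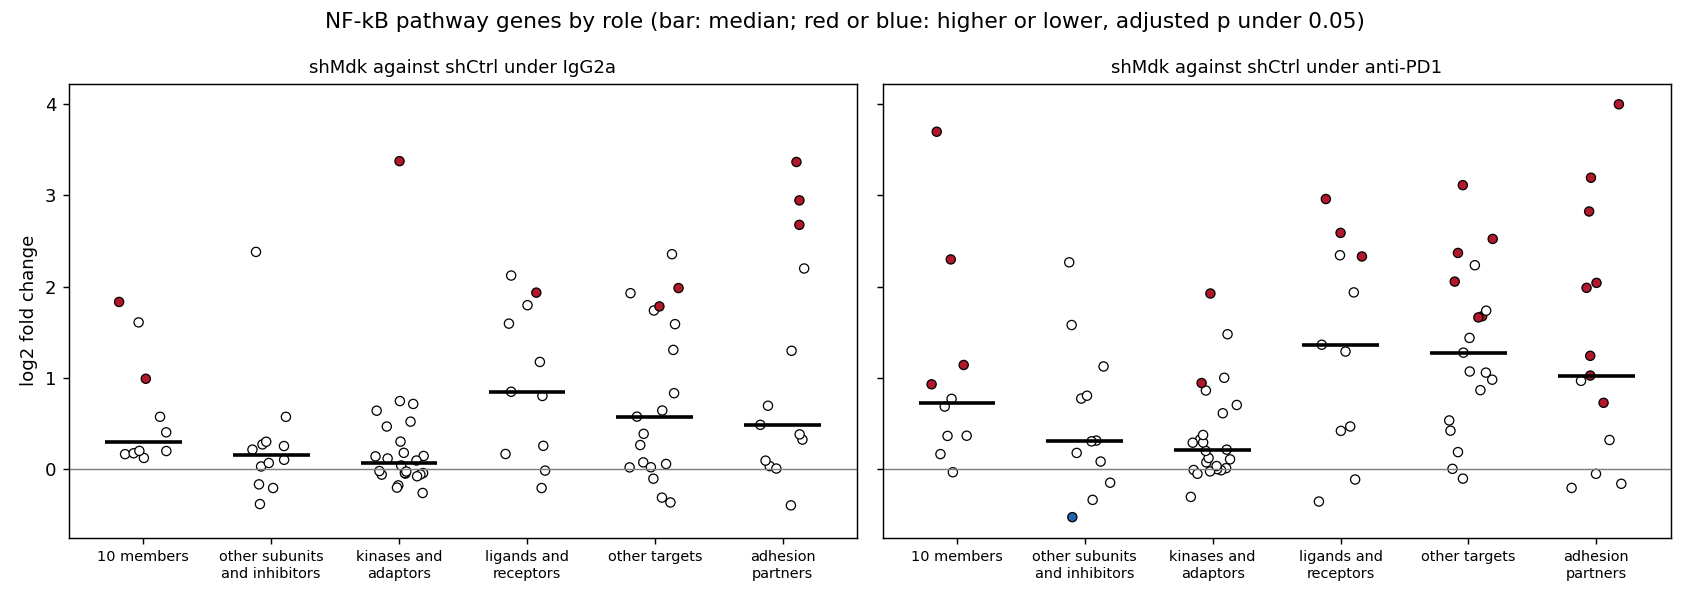
Log2 fold changes of shMdk against shCtrl (vertical axis) for the 10 genes and the 5 lists by role under IgG2a (left) and anti-PD1 (right), 1 dot per gene, with bars at the medians. Filled red dots are higher and blue lower at an adjusted p under 0.05. Under anti-PD1 the medians are 1.36 for ligands and receptors and 0.21 for kinases and adaptors.

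Genes with the pattern most like Cd40, Icam1 and Vcam1 over the 16 tumours were sought among 10770 genes with a mean of at least 20 normalised reads, by the root mean square difference between log2 profiles centred on their means. For Vcam1 they were Fcgr3, Tyrobp and Fcer1g, at 0.33, 0.34 and 0.39, which encode an Fc receptor and signalling adaptors of myeloid cells. For Cd40 they were Runx3, Ly6a and Csf1r, at 0.41, 0.42 and 0.47. Only the last of them, Csf1r, which encodes a growth factor receptor of macrophages, is among the 11 macrophage markers. For Icam1 they were Wipf1, Stat3 and Myof, at 0.29, 0.30 and 0.31. For scale, the profiles of Vcam1, Cd40 and Icam1 had a root mean square of 1.24, 1.58 and 0.65 about their own means, so the likeness was closer relative to spread for Vcam1 and Cd40 than for Icam1. The measure is a description and carries no test.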

How the data were processed

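The deposited table holds 1 signal per gene and tumour, a read count divided by the size factor of its library; that this was the scaling follows from the values and from the DESeq2 entry in the submitters' processing notes. Other tools named there are HTSeq, SAMtools 0.1.19, Bowtie 1.0.0, TopHat2 2.0.10 and FastQC 0.11.0, and the build is GRCm38 (mm10). Total RNA (500 ng a library) went into a stranded kit that reads transcript 3′ ends, per the labels' protocols. RNA integrity numbers averaged 8.6 (5.8 to 9.2). Whole reads were recovered: 100% of values were whole multiples of 1 read within 0.001. No per-sample column was left out.

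limma 3.58.1 (R 4.3.3), with a trend of variance on expression, was fitted to log2(normalised count + 1) of all 16 tumours with group means, for the 14672 genes with a mean of at least 5. Adjusted p-values are Benjamini-Hochberg over all genes tested, with a threshold of 0.05. Adding 1 understates the change of low genes. Exact permutation tests were two-sided, and with 4 tumours against 4 the smallest p is 0.0286. Groups without overlap always give that value. Alternatives were edgeR 4.0.16 (quasi-likelihood) and DESeq2 1.42.0 on the recovered reads, other pseudocounts, filters and scalings, fits of the compared groups alone or without a trend, and omission of each tumour. Fits without the libraries of positive GC slope (above 0.05), without those with over 2% Gm42418 reads, or with the slope as a covariate were added after seeing the data. GC content came from the last 300 bases of the longest GENCODE M21 transcript, for 99.7% of genes tested. Scripts were tested on simulated data.

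Groups came from the treatment labels. Replicate numbers follow accession order and pair nothing. The 10 genes and the lists were chosen with earlier results of these data known. Beside the members, named genes were up to 4 per list and comparison with the largest change among those that passed, and a set named in any case (Mdk, Rela, Nfkbib, Ikbkb, Map3k14, Tnf, Itgal, Itga4, Itgb2, Ptprc and Pecam1; Ltb and Cd40lg, also in that set, were not analysed here). A gene that the rule also names is not reported here. Intervals on fold changes come from the spread between tumours, and read totals carry counting error only.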

Additional observations from a re-analysis of the deposited data

Results flagged for a closer look

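Single tumours stood apart from the other 3 of their group in 7 of 148 groups examined (37 genes in 4 groups). Their gap to the nearest other tumour exceeded the 95% critical value of Dixon's test. Chance flags about 1 in 20 groups.

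Of these, 2 concern the 10 NF-kB genes, for which 40 groups were examined. Relb had 39.0 normalised reads in shMdk anti-PD1 tumour 3, against 62.2 to 66.9 in the other 3. That tumour also had the lowest macrophage marker sum of its group, 3129, and the lowest Vcam1 and Cd40. Its Icam1 and Nfkb1, at 164 and 125, were not the lowest of the group. Vcam1 had 54.3 in shCtrl IgG2a tumour 2, against 19.4 to 22.5 in the other 3. This tumour had the highest macrophage marker sum of its group, 981. Tumour 1 of the same group had a sum of 871, with Vcam1 at 22.5. The part of cell make-up in either value was not tested.

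The other 5 were in genes named beside them. Rela had 880.2 in shMdk anti-PD1 tumour 1, against 492 to 519. Nfkbib had 422 in shMdk anti-PD1 tumour 2, against 476 to 485. Ikbkb had 518 in shCtrl anti-PD1 tumour 2, against 655 to 665, in the library with the fewest reads. Itga4 had 467 in shMdk IgG2a tumour 2, against 320 to 328. Itgam had 54.7 in shMdk IgG2a tumour 4, against 30.0 to 34.1.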

How the results depend on the processing

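Under anti-PD1 the count of members higher in shMdk tumours stayed within 1.5 times of 4 in every alternative run. Under IgG2a the count of 2 became 1 in a fit of the compared groups alone (Icam1 lost, adjusted p = 0.0813), 1 without a trend (Vcam1 lost, 0.0682), and 0 without the 5 libraries of positive GC slope. It ranged from 0 to 1 when single tumours were left out. For anti-PD1 against IgG2a in shMdk tumours the count of 0 became 1 with DESeq2 (Nfkbia); the cause was not tested. Over 1110 refits of the 50 member values, 6 of which passed in the planned fit, 16 lost a call and 4 gained one. All 16 losses were of Icam1 and Vcam1 under IgG2a, each of which passed in 13 of 21 alternatives. The sign changed in 54 of the refits, all of values that did not pass, and in 0 of values that did. Of 1660 refits of the other named genes, 66 lost and 2 gained a call. Calls over all genes varied more: DESeq2 called 449 under IgG2a and 1310 under anti-PD1 in shMdk against shCtrl, against 255 and 870 in limma and 251 and 866 with edgeR, and 74 were left under IgG2a without the GC slope libraries. No paired analysis was possible because the labels give no replicate numbers. Cd40 and Tnfaip3 are limited by depth, with 0 to 52 and 0 to 25 reads per library.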
